A study of Mus musculus with 9 samples.

Results

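The genes described here encode the inhibitors of cyclin-dependent kinases (CDK inhibitors) and the pocket proteins, the brakes of the step from G1 into S phase. The group held 10 genes of the 38293 in the count table. They were chosen by name: 7 CDK inhibitors, of which 3 belong to the Cip/Kip family (Cdkn1a, Cdkn1b and Cdkn1c) and 4 to the INK4 family (Cdkn2a, Cdkn2b, Cdkn2c and Cdkn2d), and 3 pocket proteins (Rb1, Rbl1 and Rbl2). RNA came from ventricles of mouse pups at postnatal day 7 (P7). The 5 control libraries came from Arid1a f/f littermates, which carry loxP-flanked Arid1a and no Cre. The 4 cKO libraries came from aMHC-Cre;Arid1a f/f pups, in which the α-myosin heavy chain promoter drives Cre in cardiomyocytes, so that both groups share the floxed alleles and all other cells of the cKO ventricle keep a working Arid1a. ARID1A belongs to the SWI/SNF complex, which remodels chromatin and which it helps bring to DNA. The comparison asked which transcripts depend on ARID1A in the maturing heart. Only the cKO group carries Cre, so that effects of Cre and of Arid1a loss cannot be told apart. The lines were kept on a C57B/6 J background and pups were of both sexes, with the sex of each library not among the labels.

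Entry into S phase is controlled by D-type cyclins with CDK4 or CDK6 and by cyclin E with CDK2, which phosphorylate the pocket proteins. An unphosphorylated pocket protein holds E2F transcription factors and keeps the genes of DNA synthesis silent. INK4 proteins bind CDK4 and CDK6, whereas Cip/Kip proteins bind whole cyclin and kinase complexes. RBL1 and RBL2 also assemble with the MuvB proteins into the DREAM complex, which represses cell cycle genes in resting cells. Cardiomyocytes leave the cell cycle in the days after birth, and CDK inhibitors and pocket proteins are known to take part in that exit.

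Promoter sequence is shown for the 3 genes on which the results below turn, Cdkn1a and Cdkn1b, which passed the test in opposite directions, and Rbl1, the pocket protein nearest to the threshold. The sequences are RefSeq promoter windows on GRCm38.p6. The windows hold 250 bases before and 50 after each transcript start, and were found for 8 of the 10 genes, in 11 windows. The 130 bases just upstream of the start are printed 5′ to 3′ on the strand of the gene. Capitals mark matches to a p53 response element (a pair of adjoining decamers of the consensus, with at most 1 mismatch outside its fixed C and G), to the GC box GGGCGG bound by Sp factors, or to the E2F letters TTTCCCGC, TTTCGCGC, TTTGCCGC and TTTGGCGC, each searched on both strands.
Cdkn1a upstream start, chr17:29090849-29090978, plus strand, ending at the edge of the annotated first exon: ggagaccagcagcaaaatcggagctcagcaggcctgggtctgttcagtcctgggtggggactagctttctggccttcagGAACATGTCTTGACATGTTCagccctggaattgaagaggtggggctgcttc
Cdkn1a downstream start, chr17:29093639-29093768, plus strand, within an intron of the longer transcript: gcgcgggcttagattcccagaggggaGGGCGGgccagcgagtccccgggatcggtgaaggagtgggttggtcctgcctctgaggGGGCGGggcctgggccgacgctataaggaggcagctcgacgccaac
Cdkn1b, chr6:134920271-134920400, plus strand, outside the gene: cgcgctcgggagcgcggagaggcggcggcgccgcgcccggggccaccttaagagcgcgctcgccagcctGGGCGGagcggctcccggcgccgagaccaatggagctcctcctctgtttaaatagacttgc
Rbl1, chr2:157204535-157204664, minus strand, outside the gene: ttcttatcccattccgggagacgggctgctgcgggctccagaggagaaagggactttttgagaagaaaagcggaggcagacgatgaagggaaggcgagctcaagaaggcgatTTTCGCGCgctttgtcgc

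The p53 element began 51 bases before the upstream start of Cdkn1a. Of all 32851 promoter windows, 22 (0.067%) held such a match, and no other window of the group did. This element was searched for after the Cdkn1a window had been read. The downstream Cdkn1a start had GC boxes beginning 104 and 46 bases upstream and the Cdkn1b start had 1 at 61 bases, in a background in which 35.7% of windows held a GC box and 9 of the 11 windows of the group did. The E2F letters stood 18 bases before the Rbl1 start and 99 bases before a Cdkn2a start. They were in 2.26% of all windows, and in no printed window other than that of Rbl1. The TEAD letters GGAATG (14.7% of all windows) were met in the group only in Rbl1, beginning 121 bases before the start as CATTCC on the printed strand. FOXO letters GTAAACA (3.65% of all windows) were met in none of the 11. A match of letters is a description of the sequence and does not show binding.

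The libraries held between 31011055 and 40073801 counts, and cardiomyocyte markers were abundant in all of them. Arid1a itself ranged from 128.0 to 148.1 CPM (counts per 1000000 counts of the TMM-scaled library) in controls and from 100.3 to 112.9 CPM in cKO libraries, without overlap (log2 fold change -0.39 ± 0.06 SE, adjusted p = 0.00132). The 9 libraries fell into 2 sets by Rps3a3, a near copy of a ribosomal protein gene, which measured 99.7 to 112.3 CPM in control 3, 4 and 5 and cKO 4 and 0.345 to 0.521 CPM in the other 5 libraries. What the sets are is not given in the sources used here, and the high set holds 1 cKO library, so that values within it rest on that library. Levels of Xist put 3 control and 2 cKO libraries with males. Summed cardiomyocyte markers (10 genes) ranged from 60220 to 68170 CPM in controls and from 53320 to 57400 CPM in cKO. All 10 had a negative change. Of these, 2 (Myl2 and Pln) fell at an edgeR adjusted p under 0.05, where 8.03% of all tested genes did. Summed fibroblast markers (10 genes) ranged from 7233 to 8593 CPM in controls and from 8811 to 9888 CPM in cKO. By the same criterion 4 of the 10 rose, where 8.25% of all tested genes did. The change was positive for 8 of the 10 and negative for 2. The ventricle is a mixed tissue, so that fewer cells of a type and less RNA per cell cannot be told apart, and the part of these shifts in the results below was not tested.

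Of the 10 genes, 9 had enough counts to be tested with edgeR's quasi-likelihood test. Cdkn1a rose and Cdkn1b fell at a Benjamini-Hochberg adjusted p under 0.05, taken over the 15318 genes tested. In the background of all tested genes, 8.25% rose and 8.03% fell by that criterion. With the added demand of a change over 1.5-fold, 1 of the 9, Cdkn1a, was called, where 6.72% of all tested genes were. The fitted change was positive for 6 of the 9 and negative for 3, with a median log2 fold change of 0.26 against 0.01 over all tested genes. In 1 of the 9 the cKO libraries did not overlap the controls, where 16.7% of all tested genes showed no overlap.

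**Figure D1:**
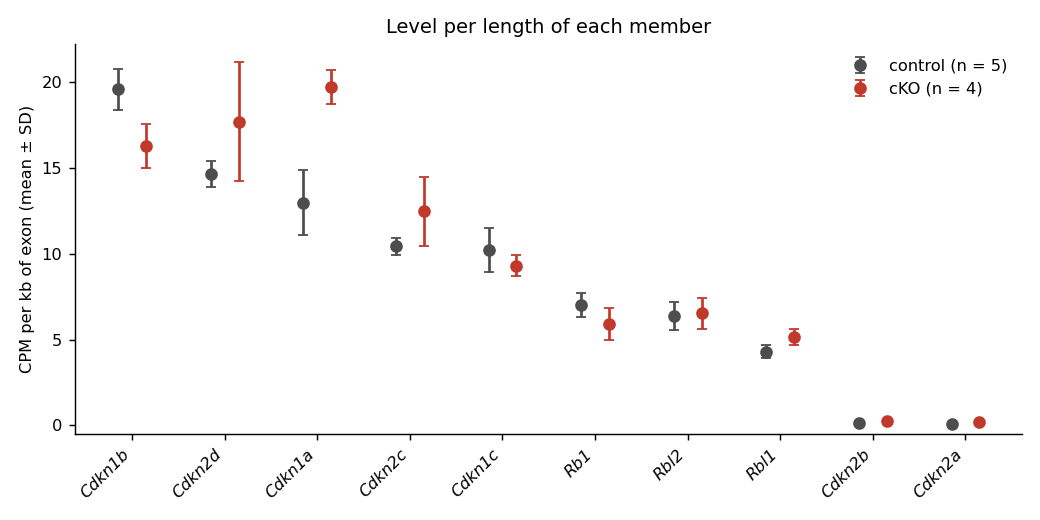
Level per length (CPM per kb of exon, vertical axis) of each gene of the group, ordered by its control level. Points are means and bars SD of 5 control (grey) and 4 cKO (red) libraries. Cdkn1b led in controls at 19.6 and Cdkn1a led in cKO at 19.7, while Cdkn2a and Cdkn2b lay near 0 in both.

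In control ventricles Cdkn1b was the most abundant of the group per length, at 19.6 ± 1.20 CPM per kb of exon (SD, n = 5). Cdkn2d (14.6 ± 0.77), Cdkn1a (13.0 ± 1.89), Cdkn2c (10.4 ± 0.49) and Cdkn1c (10.2 ± 1.28) followed on the same scale, and the ranges of neighbours among these 4 overlapped over the controls. The pocket proteins were lower, with Rb1 at 7.01 ± 0.70 and Rbl2 at 6.38 ± 0.81, whose ranges overlapped, and Rbl1 at 4.29 ± 0.36 CPM per kb, below the range of both. Cdkn2b (0.174) and Cdkn2a (0.109 CPM per kb) stood far below all others and overlapped each other. In cKO ventricles Cdkn1a had the highest mean at 19.7, ahead of Cdkn2d at 17.7 and Cdkn1b at 16.3 CPM per kb. The cKO range of Cdkn2d (14.3 to 21.5) held that of Cdkn1a (18.7 to 20.9) and overlapped that of Cdkn1b (14.5 to 17.7). The place of Cdkn1a depends on the length used: over its longest transcript it was already first in controls, at 22.2 against 19.6 for Cdkn1b.

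**Figure D2:**
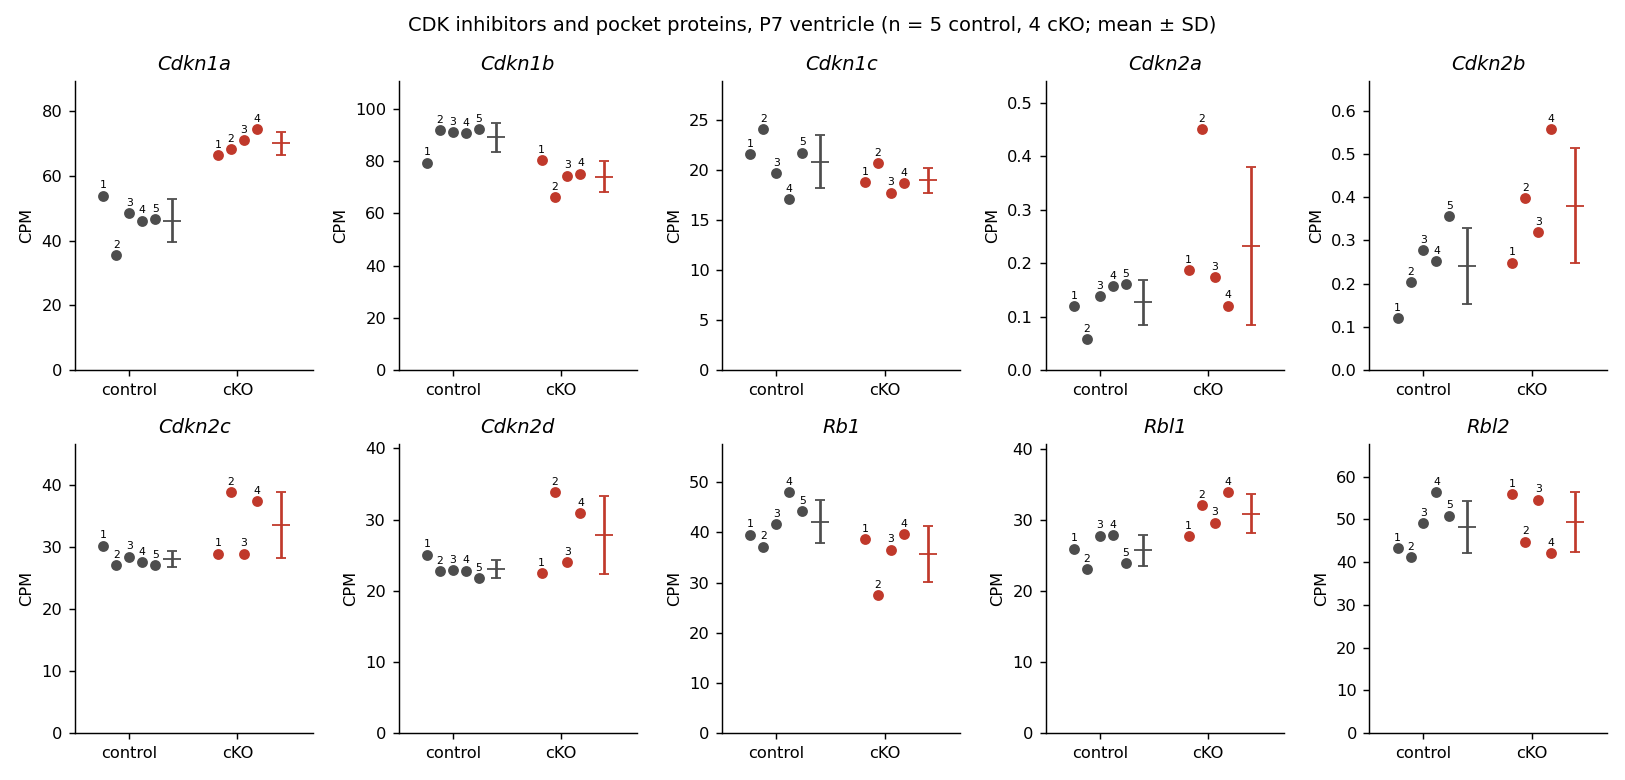
CPM (vertical axis, from 0) of each gene in each library, numbered by replicate, with mean and SD beside each group (5 control, grey, and 4 cKO, red). All 4 cKO libraries lie above all 5 controls for Cdkn1a, and for Cdkn2c and Cdkn2d cKO 2 and 4 lie above the rest.

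Cdkn1a encodes p21, the Cip/Kip inhibitor best known as a target of p53. The gene (ENSMUSG00000023067, chr17:29090976-29100727, plus strand) measured 53.9, 35.5, 48.5, 46.2 and 46.6 CPM in control 1 to 5 and 66.4, 68.2, 70.9 and 74.4 CPM in cKO 1 to 4. Every cKO library was above every control, and the cKO libraries were close together while control 2 was the low end of the controls. The control mean of 46.1 ± 6.70 (SD, n = 5) compared with a cKO mean of 70.0 ± 3.48 CPM (SD, n = 4). This is a rise of 1.52-fold, or 0.60 ± 0.10 SE on the log2 scale (edgeR adjusted p = 0.00176). It was of like size within both library sets (0.62 for Rps3a3-low, 0.66 for Rps3a3-high), and 0.79 in female and 0.46 in male libraries, a difference by sex of 0.33 ± 0.20 SE that did not pass the test (edgeR interaction adjusted p = 0.999). The fold lay just past the threshold of 1.5. The log2 change dropped under it without control 2 (0.52, adjusted p = 0.000968) and without cKO 4 (0.57, adjusted p = 0.00675), both still past the test. In the 5 Rps3a3-low libraries alone the change was 0.62 but the adjusted p was 0.0821.

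Cdkn1b encodes p27, a Cip/Kip inhibitor of cyclin E and CDK2 that is abundant in resting cells. The gene (ENSMUSG00000003031, chr6:134920401-134925513, plus strand) measured 79.4, 92.0, 91.2, 90.6 and 92.2 CPM in control 1 to 5 and 80.4, 66.1, 74.5 and 75.2 CPM in cKO 1 to 4. Control 2 to 5 stood within a narrow band, control 1 stood apart below them, and cKO 1 lay just above control 1, so that the groups overlapped by that pair alone. The control mean of 89.0 ± 5.45 (SD, n = 5) compared with a cKO mean of 74.1 ± 5.89 CPM (SD, n = 4). The fitted log2 change was -0.27 ± 0.07 SE (edgeR adjusted p = 0.0253). The direction held in both library sets (-0.22 and -0.28), but in the Rps3a3-low set alone it did not pass (adjusted p = 0.333). The change was under 1.5-fold in every fit. It also no longer passed without cKO 2 (-0.22) and, at log2 changes between -0.27 and -0.25, without cKO 3 or control 2, 3, 4 or 5, with adjusted p from 0.051 to 0.0631 over these 6 fits.

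**Figure D3:**
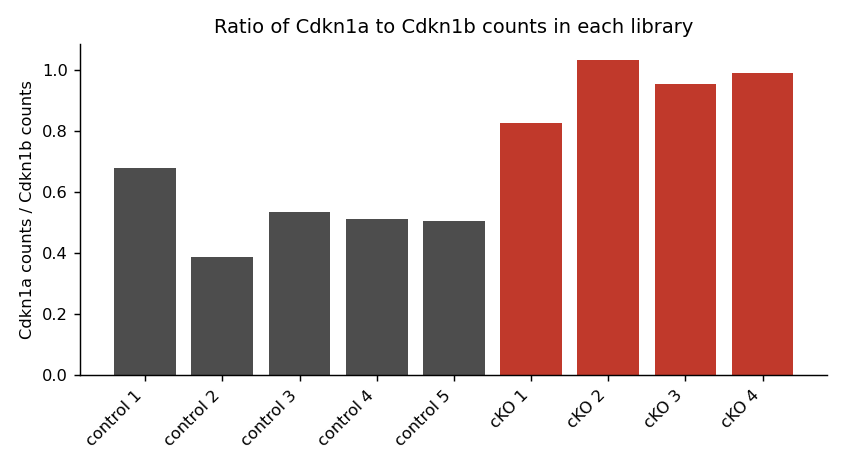
Ratio of Cdkn1a counts to Cdkn1b counts (vertical axis, from 0) in each of the 5 control (grey) and 4 cKO (red) libraries. The controls lie between 0.386 and 0.679 and the cKO libraries between 0.826 and 1.03.

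The ratio of Cdkn1a to Cdkn1b within a library restates the changes of both genes, of which Cdkn1a alone already had no overlap. Counts of Cdkn1a over counts of Cdkn1b were 0.679, 0.386, 0.532, 0.510 and 0.505 in control 1 to 5 and 0.826, 1.03, 0.953 and 0.988 in cKO 1 to 4. The ratio does not depend on the scaling of the libraries. Its mean was 0.522 ± 0.105 (SD, n = 5) in controls and 0.950 ± 0.089 (SD, n = 4) in cKO, given as a description of the values above and without a test of its own.

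Cdkn1c encodes p57, the Cip/Kip inhibitor expressed from the maternal allele of an imprinted domain. The gene (ENSMUSG00000037664, chr7:143458339-143461050, minus strand) measured 21.6, 24.1, 19.7, 17.1 and 21.8 CPM in controls and 18.8, 20.7, 17.8 and 18.7 CPM in cKO. All cKO values lay within the range of the controls, and the log2 fold change was -0.14 ± 0.10 SE (edgeR adjusted p = 0.395). It was -0.08 without control 2, and -0.26 within the Rps3a3-low and -0.06 within the other set. Of its neighbours in the imprinted domain on chromosome 7, 7 of 10 listed genes were tested. Kcnq1, a potassium channel gene whose locus holds the imprinting control of the domain, was the only one to pass, falling by 0.59 on the log2 scale from 61.8 to 41.0 CPM (adjusted p = 0.00147). Tssc4 (0.33 on the log2 scale), Trpm5 (-0.76, at under 1 CPM in both group means) and Cd81 (-0.13) did not pass.

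The INK4 genes Cdkn2a and Cdkn2b lie side by side on chromosome 4 and were scarcely transcribed. Cdkn2a (ENSMUSG00000044303, chr4:89274471-89294653, minus strand), which yields both p16 and p19ARF that gene counts cannot separate, had 4, 2, 5, 5 and 5 counts in controls and 6, 17, 6 and 5 in cKO. It was left untested for its low counts, and cKO 2 alone stood above the others. Cdkn2b (ENSMUSG00000073802, chr4:89306299-89311039, minus strand), which encodes p15, had 4, 7, 10, 8 and 11 counts in controls and 8, 15, 11 and 23 in cKO. The groups overlapped, and the log2 fold change of 0.67 ± 0.37 SE did not pass (edgeR adjusted p = 0.256). It was 0.42 without cKO 4, the library with the most counts.

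Cdkn2c and Cdkn2d, which encode p18 and p19 and are the INK4 genes expressed in this tissue, had a shared pattern over the libraries. Cdkn2c (ENSMUSG00000028551, chr4:109660876-109667189, minus strand) measured 30.2, 27.1, 28.4, 27.6 and 27.1 CPM in controls and 28.9, 38.8, 28.9 and 37.4 CPM in cKO. Cdkn2d (ENSMUSG00000096472, chr9:21288410-21291407, minus strand) measured 25.1, 22.7, 22.9, 22.8 and 21.8 CPM in controls and 22.5, 33.9, 24.0 and 30.9 CPM in cKO. For both, cKO 2 and 4 stood above every control while cKO 1 and 3 lay among the controls. The coefficient of variation was 4.67% for Cdkn2c and 5.28% for Cdkn2d in controls, the smallest of the group, and 16.0% and 19.7% in cKO. The log2 fold changes of 0.26 ± 0.10 SE (edgeR adjusted p = 0.101) and 0.27 ± 0.12 SE (edgeR adjusted p = 0.136) did not pass. Without cKO 1 both passed, at 0.32 (adjusted p = 0.0451) and 0.36 (adjusted p = 0.0379), while without cKO 2 they were 0.18 and 0.16 and without cKO 4 0.20 and 0.22. Within the library sets the changes were 0.17 (low) and 0.43 (high) for Cdkn2c and 0.17 and 0.46 for Cdkn2d.

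**Figure D4:**
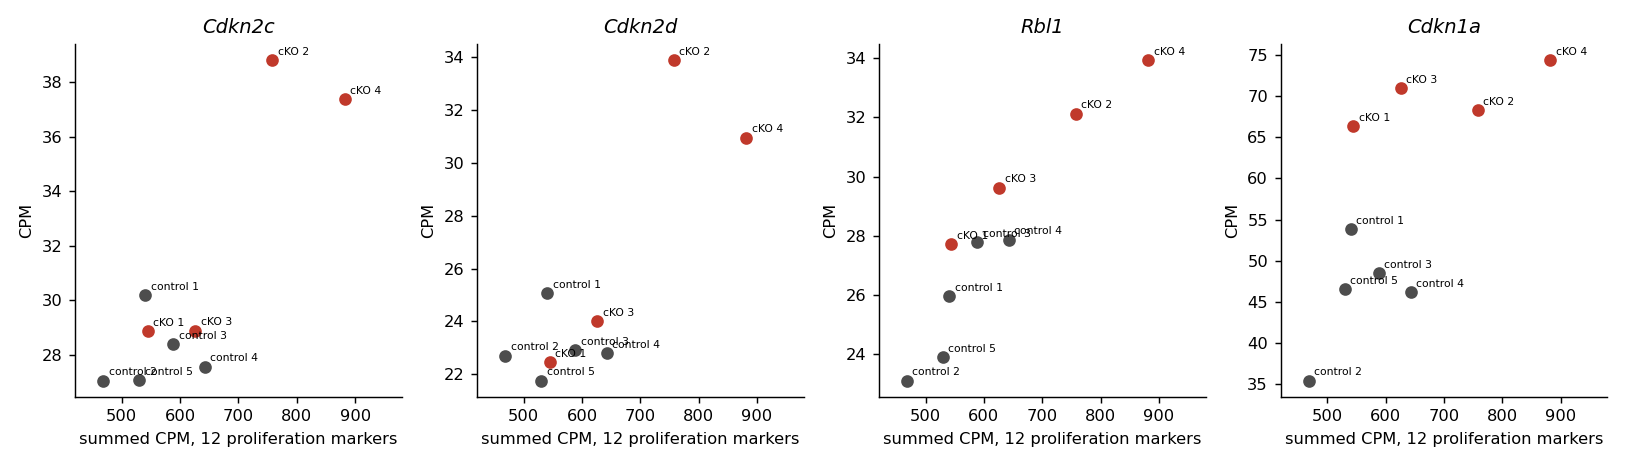
CPM of Cdkn2c, Cdkn2d, Rbl1 and Cdkn1a (vertical axes, not from 0) against the summed CPM of 12 proliferation markers (horizontal axis) in each control (grey) and cKO (red) library. cKO 4 and cKO 2 have the highest marker sums, 881.8 and 757.8, and the highest Cdkn2c, Cdkn2d and Rbl1, whereas all 4 cKO libraries are high for Cdkn1a.

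The libraries with the highest Cdkn2c and Cdkn2d, cKO 2 and 4, also had the highest proliferation markers. The summed level of 12 such markers, among them Mki67 and Top2a, was 540.4, 468.2, 588.6, 642.6 and 529.9 CPM in control 1 to 5 and 544.4, 757.8, 626.2 and 881.8 CPM in cKO 1 to 4. Here too cKO 2 and 4 lay above all controls and cKO 1 and 3 among them. All 12 markers had a positive change (median 0.36 on the log2 scale), where 51.5% of all tested genes did. Of the 12 markers 1, Plk1, passed the test, rising by 0.67 on the log2 scale, where 8.25% of all tested genes rose. By the same edgeR test 9 of the 12 had an unadjusted p under 0.05, against 29.7% of all tested genes. Among the controls this order did not hold. Control 4 had the highest marker sum of the controls, and control 1 the highest Cdkn2c and Cdkn2d. For Cdkn1a, cKO 1, with a marker sum inside the control range, was above every control.

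Among the pocket proteins, Rb1 encodes the retinoblastoma protein. The gene (ENSMUSG00000022105, chr14:73183673-73325822, minus strand) measured 39.5, 37.2, 41.7, 48.1 and 44.3 CPM in controls and 38.7, 27.5, 36.6 and 39.7 CPM in cKO. The low end of cKO was cKO 2 alone, and the other 3 lay at or near the low controls. The log2 fold change of -0.24 ± 0.11 SE did not pass (edgeR adjusted p = 0.167), and without cKO 2 it was -0.14. Rcbtb2 and Lpar6 overlap Rb1 on the opposite strand and changed by -0.07 and -0.06 on the log2 scale, neither passing. The strand setting of the counting is not given in the sources used here, so reads of overlapping genes cannot be told apart with certainty.

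Rbl1 encodes p107, the pocket protein typical of cycling cells. The gene (ENSMUSG00000027641, chr2:157145893-157204534, minus strand) measured 26.0, 23.1, 27.8, 27.9 and 23.9 CPM in controls and 27.7, 32.1, 29.6 and 33.9 CPM in cKO. All cKO libraries but cKO 1 were above every control, and cKO 1 was below control 3 and 4 by a fraction of a CPM. The control mean of 25.7 ± 2.18 (SD, n = 5) compared with a cKO mean of 30.9 ± 2.74 CPM (SD, n = 4). Its log2 change of 0.26 ± 0.08 SE just missed the threshold (edgeR adjusted p = 0.0543). It passed without cKO 1 (0.31, adjusted p = 0.0325), with a term for library set (0.31, adjusted p = 0.0159) and in DESeq2 (0.26, adjusted p = 0.0355), 3 of the 5 among 20 alternatives in which it did. It was further from passing without cKO 4 (0.21, adjusted p = 0.16), without control 5 (0.23, adjusted p = 0.139) and in the Rps3a3-low set alone (0.28, adjusted p = 0.227). Within the Rps3a3-low set the change was 0.28, and it was 0.36 within the other set. Rbl1 carries the E2F letters printed above.

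Rbl2 encodes p130, the pocket protein typical of resting cells. The gene (ENSMUSG00000031666, chr8:91070057-91123844, plus strand) measured 43.3, 41.2, 49.1, 56.4 and 50.9 CPM in controls and 56.0, 44.8, 54.6 and 42.1 CPM in cKO. The groups overlapped throughout, with a log2 fold change of 0.04 ± 0.11 SE (edgeR adjusted p = 0.868). Within the Rps3a3-low set the 3 cKO libraries lay above both controls (0.29), and in the Rps3a3-high set the single cKO library lay below all 3 controls (-0.31). The difference between the sets was -0.60 ± 0.18 SE (unadjusted p = 0.00588 in the edgeR model), which did not pass over all genes (adjusted p = 0.947). Aktip, which overlaps Rbl2 on the opposite strand, changed by 0.01 in the low and -0.29 in the high set.

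Of the 11 cyclins and kinases that these proteins act on, 4 rose and none fell, with a median log2 change of 0.31, where 8.25% of all tested genes rose, 8.03% fell and the median was 0.01. Ccnd2 (cyclin D2) rose from 295.0 ± 32.5 to 425.5 ± 35.0 CPM (log2 fold change 0.53 ± 0.09 SE, adjusted p = 0.00145) and Ccne1 (cyclin E1) from 7.39 ± 1.24 to 12.1 ± 2.15 CPM (0.71 ± 0.16, adjusted p = 0.00863), each without overlap. Cdk4 rose by 0.31 (adjusted p = 0.0064) and Cdk1 by 0.40 (adjusted p = 0.048) on the log2 scale. Cdk1 lay at the threshold and no longer passed when any library other than cKO 1 or 3 was left out, at changes between 0.26 and 0.43. Cdk2, the main kinase bound by p27, was at 58.8 in control and 53.1 CPM in cKO (-0.15, adjusted p = 0.135). It did not pass, though all its cKO libraries lay below all controls. Of the 11 genes 4 had no overlap, where 16.7% of all tested genes had none.

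**Figure D5:**
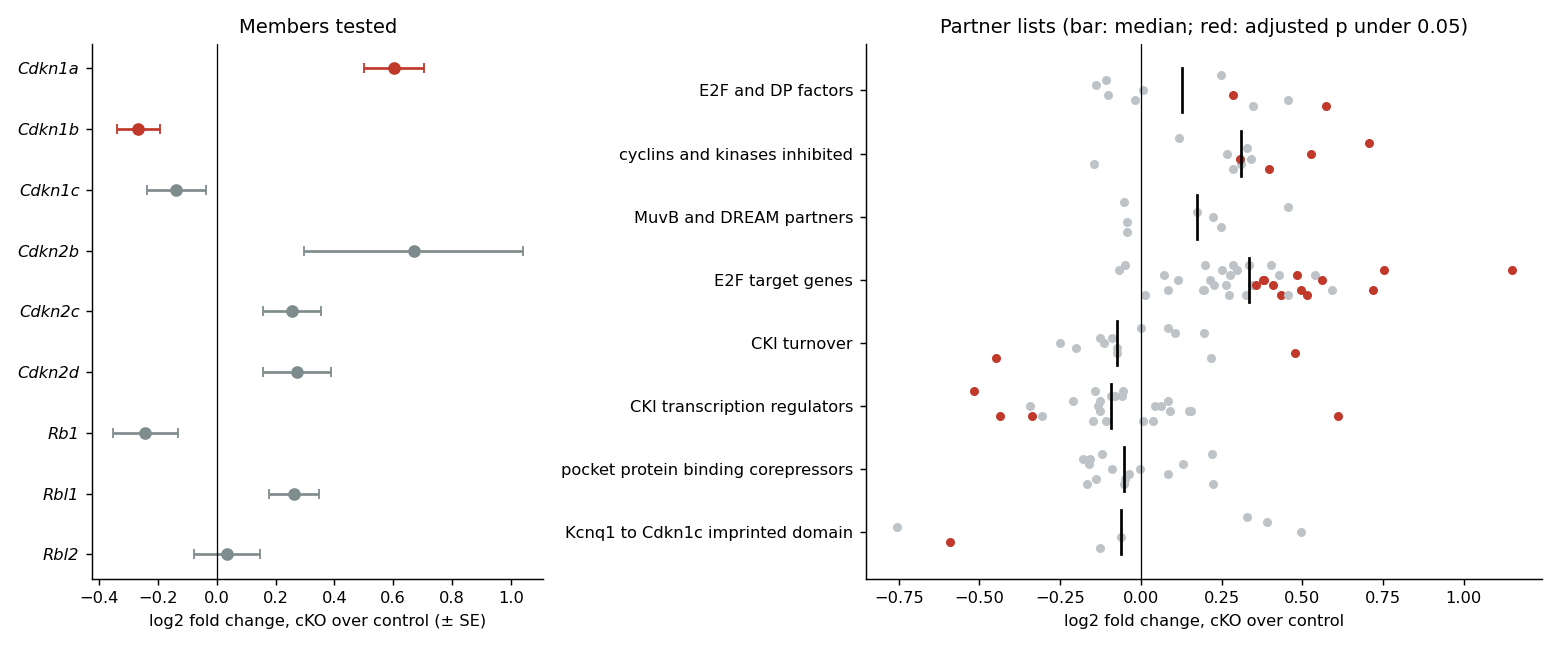
Left, log2 fold change of cKO over control (horizontal axis) with SE for the 9 genes of the group that were tested. Right, log2 fold change of each tested gene in 8 partner lists, with a bar at the median of each list and red for an adjusted p under 0.05. Cdkn1a and Cdkn1b are the red points on the left, and the E2F targets on the right have 12 red points, all positive.

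Of the 10 E2F and DP factors, which the pocket proteins bind, 2 rose and none fell (median 0.13), beside the same shares of all tested genes. E2f3, an activator, rose from 32.8 ± 1.92 to 40.0 ± 3.29 CPM (0.29 ± 0.07 SE, adjusted p = 0.02) and E2f8, an atypical repressor, from 12.7 ± 1.21 to 18.9 ± 4.28 CPM (0.57 ± 0.14 SE, adjusted p = 0.0144). Without cKO 3 (0.27) or cKO 4 (0.24) E2f3 no longer passed. In the Rps3a3-low set alone neither E2f3 (0.32, adjusted p = 0.135) nor E2f8 (0.53, adjusted p = 0.12) passed. E2f1 (0.35, adjusted p = 0.115) and E2f2 (0.46, adjusted p = 0.0809) did not pass. Of 37 genes known as E2F targets 12 rose and none fell, 35 had a positive change, and the median was 0.34. Over all tested genes 8.25% rose, 51.5% had a positive change and the median was 0.01. Gmnn, which encodes the licensing inhibitor geminin, rose most among those called, from 25.9 ± 3.97 to 57.5 ± 5.08 CPM (1.15 ± 0.11 SE, adjusted p = 2.19e-05). Ung (0.72), a DNA repair glycosylase, and Tk1 (0.75), thymidine kinase, were called as well. Mcm7 (0.48), a subunit of the replicative helicase, and Rrm2 (0.56), a subunit of ribonucleotide reductase, rose by less than 1.5-fold. The summed level of the 37 genes was 941.6 to 1179 CPM in controls and 1181 to 1553 CPM in cKO, without overlap but with control 1 and cKO 1 next to each other. Neither the 7 MuvB and DREAM partners (median 0.17, smallest adjusted p 0.0618, for Lin54) nor the 15 corepressors that bind pocket proteins (median -0.05, smallest adjusted p 0.0792, for Smarca2) had a gene past the test by edgeR, and 3 and 4 of them had an unadjusted p under 0.05 (29.7% of all tested genes).

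Among 14 genes that act on the turnover of CDK inhibitors, 1 rose and 1 fell (median -0.08), shares near those of all tested genes (8.25% and 8.03%). Cks1b, the cofactor with which SKP2 recognises p27, rose from 19.4 ± 2.34 to 27.0 ± 3.83 CPM (0.48 ± 0.12 SE, adjusted p = 0.0136). Akt1, a kinase that phosphorylates p21 and p27, fell by 0.45 on the log2 scale (adjusted p = 0.0183), but did not pass without cKO 3 or cKO 4 (-0.42 in each fit). Skp2 itself measured 10.8 in control and 12.4 CPM in cKO (0.20, adjusted p = 0.372). Among 25 transcription regulators of CDK inhibitor genes 1 rose and 3 fell (median -0.09), also near those shares of all tested genes. Meis1, known to promote expression of CDK inhibitors in cardiomyocytes, fell from 63.9 ± 4.74 to 44.6 ± 2.45 CPM without overlap (-0.52 ± 0.07 SE, adjusted p = 0.000493). Myc, a repressor of Cdkn1a and Cdkn2b, rose from 7.46 ± 1.26 to 11.4 ± 1.36 CPM (0.61 ± 0.14 SE, adjusted p = 0.0109) and was called. It fell under 1.5-fold without cKO 1 (0.57), cKO 2 (0.56) or control 2 (0.52), and in the Rps3a3-low set alone it did not pass (0.74, adjusted p = 0.106). Hes1 (-0.34, adjusted p = 0.00387) and Tbx3 (-0.44, adjusted p = 0.0473), both repressors, fell. Tbx3 no longer passed when any library other than cKO 1 or control 1 was left out, at changes between -0.47 and -0.37. Trp53, which encodes p53, measured 51.7 ± 3.40 in control and 55.1 CPM in cKO (adjusted p = 0.469), and Mdm2, the ubiquitin ligase that p53 itself induces, 73.6 ± 2.52 in control and 67.5 CPM in cKO (adjusted p = 0.226), and neither passed.

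The 3 genes whose pattern over the 9 libraries was most like that of Cdkn1a, among 11064 genes with a mean of at least 5 CPM, were Gxylt2, Trim16 and Akip1. Their Euclidean distances in standardised log2(CPM + 0.5) were 0.612, 0.624 and 0.639, where the median distance over all genes was 4.067. All 3 rose, by 0.62, 0.47 and 0.41 on the log2 scale, and they share the same libraries with Cdkn1a, so that their likeness is a description.

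Of endothelial markers 1 of 10 fell (Tek, -0.28), near the 8.03% of all tested genes that fell. Their sum was 1951 to 2159 CPM in controls and 1987 to 2133 CPM in cKO. Of epicardial markers 1 of 5 fell (Wt1, -0.40), beside the same 8.03% of all tested genes. None of the 7 mural, 8 macrophage, 3 tested lymphocyte or 7 erythroid markers passed by edgeR, and 3, 0, 0 and 2 of them had an unadjusted p under 0.05 (29.7% of all tested genes). All 8 macrophage markers (median 0.47 on the log2 scale) and all 7 erythroid markers (median 0.32) had a positive change. Over all tested genes 51.5% did. Mural markers went both ways, with 4 positive and 3 negative. Summed erythroid markers ranged from 485.7 to 935.9 CPM in controls and from 740.1 to 1145 CPM in cKO. Summed macrophage markers ranged from 93.2 to 157.1 CPM in controls and from 102.6 to 185.9 CPM in cKO, and lymphocyte markers stayed below 6 CPM in sum, with 3 at 0 in some library. The part of these cell types in the levels of the CDK inhibitors and pocket proteins was not tested.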

How the data were processed

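Ventricle RNA of 9 mice at P7 was made into stranded poly(A) libraries and sequenced as single-end reads of 75 bases. The values are raw counts per gene, which the authors deposited as 1 table with 38293 genes and no normalization; 0 sample columns were left unmatched. The submitters' processing notes name STAR 2.4.2a, HTSeq 0.6.1 and mm10, without roles. Annotation release and strand setting are not given in the sources used here. The methods count fewer controls than the labels do, whereas a figure legend of the paper gives the same number as the labels. Every library with a control label entered the fit. Nothing in the labels states that libraries are separate litters, so p-values measure the spread between these libraries.

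Symbols and coordinates came from GENCODE M21 on GRCm38 (36429 identifiers matched). Counts were tested in R 4.3.3 with edgeR 4.0.16 (filterByExpr at a minimum count of 10, TMM scaling, robust quasi-likelihood F test, two-sided, genotype alone), with Benjamini-Hochberg adjustment over 15318 genes. CPM are TMM-scaled. A gene rose or fell ("passed") at an adjusted p under 0.05 and was called if it also changed over 1.5-fold. Levels per length divide by the union of exons. Alternatives were DESeq2 1.42.0, other scalings and filters, library set, sex and the replicate number as terms, and fits without each library. The script was tested on simulated data, in which 43% of genes changed 1.5-fold and 70.1% of genes changed 2-fold passed. A gene that did not pass is therefore not shown to be unchanged. The members and lists were chosen with earlier results of these data known. Named partners are all called genes of a list and otherwise up to 4 with the smallest adjusted p; Cdk2, Skp2, Trp53 and Mdm2 were added for their role after their values were seen.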

Additional observations from a re-analysis of the deposited data

Results flagged for a closer look

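In control 1 Cdkn1b stood apart from the other 4 controls, at 79.4 CPM against 90.6 to 92.2 CPM, a gap of 0.873 of the range of the controls. Chance takes about 1 of 20 groups past the limit for 5 samples, 0.71, and 20 pairs of gene and group were examined.

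For Rbl2 the cKO libraries of the Rps3a3-low set lay above both controls, and the single cKO library of the Rps3a3-high set lay below all 3 controls, so that this direction rests on cKO 4 alone. The difference was -0.60 on the log2 scale in a model with an interaction of genotype and library set, chosen after the data were seen, with an adjusted p of 0.947 by edgeR over all 15318 genes, of which 2 passed.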

How the results depend on the processing

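The direction of all 9 tested genes except Rbl2 was the same in every alternative run. In the 5 Rps3a3-low libraries alone, Cdkn1a (0.62) and Cdkn1b (-0.22 on the log2 scale) no longer passed, 0 genes of the group passed or were called, and 620 genes were called over all genes against 1030. That fit has fewer libraries, and of the 19 genes outside the group that were followed through the alternatives (Arid1a and 18 partners), Ccnd2, Meis1, Gmnn and Kcnq1 still passed in it. The labels do not state that replicate numbers pair the libraries. Same-numbered libraries had correlations of 0.011 to 0.232, and no cKO library was closest to the control with its own number. Library set and sex also vary over the libraries, so that these correlations do not settle whether the numbers pair them. With the replicate block Cdkn1b was at -0.25 and no longer passed, leaving 1 gene of the group past the test, and Cdkn1a stayed called. Cdk1, Cks1b, Tbx3 and Tk1 did not pass with it. Rbl1 passed in DESeq2 (0.26), with a filter at a mean of 1 CPM (0.27), with the library set as a term (0.31) and with set and sex as terms (0.31), and the cause was not tested.

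Leaving out each library in turn, Cdkn1a ranged from 0.52 to 0.66, Cdkn1b from -0.31 to -0.22 and Cdkn1c from -0.20 to -0.08. Cdkn2b ranged from 0.42 to 0.82 (8 fits, as it failed the count filter without control 5). Cdkn2c ranged from 0.18 to 0.32, Cdkn2d from 0.16 to 0.36, Rb1 from -0.30 to -0.14 and Rbl1 from 0.21 to 0.31. Rbl2 ranged from -0.031 to 0.104, below 0 without control 1 or 2 or cKO 1 or 3. The number of the group past the test ranged from 1 to 5 (5 without cKO 1, and 1 without control 2, 3, 4 or 5 or cKO 2 or 3), and the number called from 0 to 1. Over 20 alternatives Cdkn1a passed in 19 and was called in 17, and Cdkn1b passed in 12. Of 380 values of those 19 genes 334 stayed past an adjusted p of 0.05, 46 did not and 0 reversed, with Tbx3 and Cdk1 the closest to the threshold. Marker genes and the genes most like Cdkn1a were not followed through the alternatives. Counts limit Cdkn2a and Cdkn2b.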
